A study of Homo sapiens with 6 samples.

Results

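The 6 genes described here are the receptor genes PGR, ESR1, NR3C1 and VDR, the orphan receptor gene ESRRA, and FKBP5, out of 61552 gene identifiers in each count table. They were chosen by name, as genes of the progesterone, estrogen, glucocorticoid and vitamin D receptors with a cochaperone and an estrogen-related receptor. Their transcripts were measured by RNA sequencing in the human cell line MDA-MB-231, a long-established model of triple-negative breast cancer. The cells had received 10 µM VNLG-152R for 24 h (3 libraries) or the DMSO vehicle for 24 h (3 vehicle control libraries). VNLG-152R is the compound that the study examines as a degrader of the kinases MNK1 and MNK2. The comparison asks whether this treatment was accompanied by other transcript levels of the receptors or of genes that the receptors are known to act on. Every sample comes from the same cell line, and the labels do not say whether the 3 libraries of a group came from separate cultures, so the p-values reflect spread between libraries that may be technical.

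Steroid receptors and the vitamin D receptor are transcription factors switched on by small lipid-soluble ligands. Without hormone the glucocorticoid and progesterone receptors sit in a complex with HSP90 and cochaperones such as FKBP4 and FKBP5, and with hormone they bind DNA as dimers and recruit coactivators. The vitamin D receptor binds DNA together with a retinoid X receptor, and ESRRA has no known natural hormone of its own and works with the coactivators PPARGC1A and PPARGC1B on genes of mitochondrial metabolism. Triple-negative breast cancer lines are named for a low level of the estrogen and progesterone receptors and of ERBB2, while the glucocorticoid receptor is widely expressed in epithelial cells.

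The receptors recognise DNA through 2 zinc fingers. The coding sequence of the first finger is shown here because all 5 receptor genes hold a related form of it. Sequences are from GENCODE release 29 transcripts on GRCh38, 5′ to 3′ on the coding strand, 81 bases each, and capitals mark the 18 bases that encode the P-box stretch, the residues that read the response element.
PGR: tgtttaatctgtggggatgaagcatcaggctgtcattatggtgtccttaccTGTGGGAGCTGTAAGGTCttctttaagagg
NR3C1: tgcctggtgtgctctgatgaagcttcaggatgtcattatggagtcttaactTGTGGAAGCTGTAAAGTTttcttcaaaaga
ESR1: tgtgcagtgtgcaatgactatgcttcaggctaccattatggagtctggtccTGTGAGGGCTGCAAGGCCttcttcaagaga
ESRRA: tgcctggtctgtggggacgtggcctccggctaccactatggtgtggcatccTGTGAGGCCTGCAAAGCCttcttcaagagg
VDR: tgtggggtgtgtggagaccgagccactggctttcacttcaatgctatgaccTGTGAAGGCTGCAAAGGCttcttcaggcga
The stretch lies at chr11:101126017-101126097 on the minus strand for PGR, in its exon 2. It lies at chr5:143314012-143314092 on the minus strand for NR3C1, in exon 3, and at chr6:151842697-151842777 on the plus strand for ESR1, in exon 4 of the transcript used. For ESRRA it lies at chr11:64307414-64307494 on the plus strand, in exon 2, and for VDR it crosses an exon junction within chr12:47865174-47879044 on the minus strand.

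The closest pair was PGR and NR3C1, with 60 of 81 bases identical (74.1%) and 15 of the 18 capital bases. ESR1 and ESRRA shared 58 of 81 bases (71.6%) and 16 of the 18 capital bases. NR3C1 and VDR were the most distant pair, with 58% identity. The longest identical run between whole transcripts of any pair of the 5 receptors was 12 to 20 bases, against reads of 100 bases. NR3C1 and its nearest relative in the lists, the mineralocorticoid receptor gene NR3C2, shared a run of at most 31 bases, and FKBP5 and FKBP4 one of 17 bases. ESRRA differed in this respect, since its pseudogene ESRRAP1 shared a run of 106 bases with it, longer than 1 read. ESRRAP1 held 12, 19 and 4 counts in VNLG-152R libraries and 7, 4 and 12 counts in vehicle controls, against at least 5800 counts of ESRRA in every library. Reads that align equally well to both genes may be in neither count, so these counts do not show how many were shared.

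Counts assigned to genes totaled 69923839 to 82151816 per VNLG-152R library and 60122936 to 68583224 per vehicle control, so the treated libraries were the deeper ones. Levels are given as CPM, the count scaled to library size and by TMM. Of 17084 genes tested with the quasi-likelihood test of edgeR, 887 (5.19%) had a Benjamini-Hochberg adjusted p under 0.05, of which 642 (3.76%) were higher and 245 (1.43%) lower with VNLG-152R, and the median log2 fold change of all tested genes was -0.00235. The number of calls changed when 1 library was left out, which also leaves fewer libraries to test. Without vehicle control replicate 1, 2 or 3 the count was 426, 619 or 264. Without VNLG-152R replicate 1, 2 or 3 the count was 948, 531 or 470. Changes also followed transcript length, with a Spearman's rho of 0.345 between log2 fold change and longest transcript across 12847 genes, which are not independent replicates. The share of read pairs outside annotated genes was 3.36% to 5.05% with VNLG-152R and 2.63% to 3.17% in vehicle controls, and its part in the results was not tested. Of markers of the line, VIM had 3397 to 4323 CPM with VNLG-152R and 4911 to 5166 CPM in vehicle controls (log2 fold change -0.39, edgeR adjusted p = 0.0472, held in 7 of 15 alternatives). ERBB2 had 84.3 to 118 CPM with VNLG-152R and 86.7 to 92.1 CPM in vehicle controls. VIM was the only 1 of the 7 listed line markers called, against 5.19% of all tested genes. The median log2 fold change of the 7 was -0.21, and ERBB2 alone had a positive value. KRT18 (-0.37), KRT8 (-0.21), EPCAM (-0.21), AXL (-0.15) and CD44 (-0.10) did not pass in edgeR (lowest adjusted p = 0.0696, for KRT18). Of 10 markers of blood, endothelial, liver and stromal cells 6 were under the expression filter, among them PTPRC, CD3E and ALB at or below 0.103 CPM in every library, while PECAM1 had 21.3 to 26.5 CPM and COL1A1 15.1 to 18.4 CPM over the 6 libraries. The summed level of the 10 was 45.1 to 46.4 CPM with VNLG-152R and 41.5 to 45.5 CPM in vehicle controls.

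None of the receptor genes tested, nor FKBP5, passed the threshold. Of the 6 genes, 5 passed the filter on low counts, and 0 of these 5 had an adjusted p under 0.05, against 5.19% of all tested genes. Among so few genes a count of 0 is close to that share and does not set them apart. At an unadjusted p under 0.05 in edgeR there was 1, PGR, whose adjusted p was 0.203. Unadjusted p-values of that size were therefore common among all tested genes, and this count does not set the 5 genes apart. DESeq2 and limma-voom also gave 0 calls, DESeq2 over the 4 genes for which it gave an adjusted p and limma-voom over 5. The CPM values of the groups did not overlap for 2 of the 5 genes, PGR and FKBP5, that is 40% against 28.5% of all tested genes. With 3 libraries against 3, the smallest p of a two-sided exact permutation test is 0.1, and this test was not used for single genes.

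**Figure D1:**
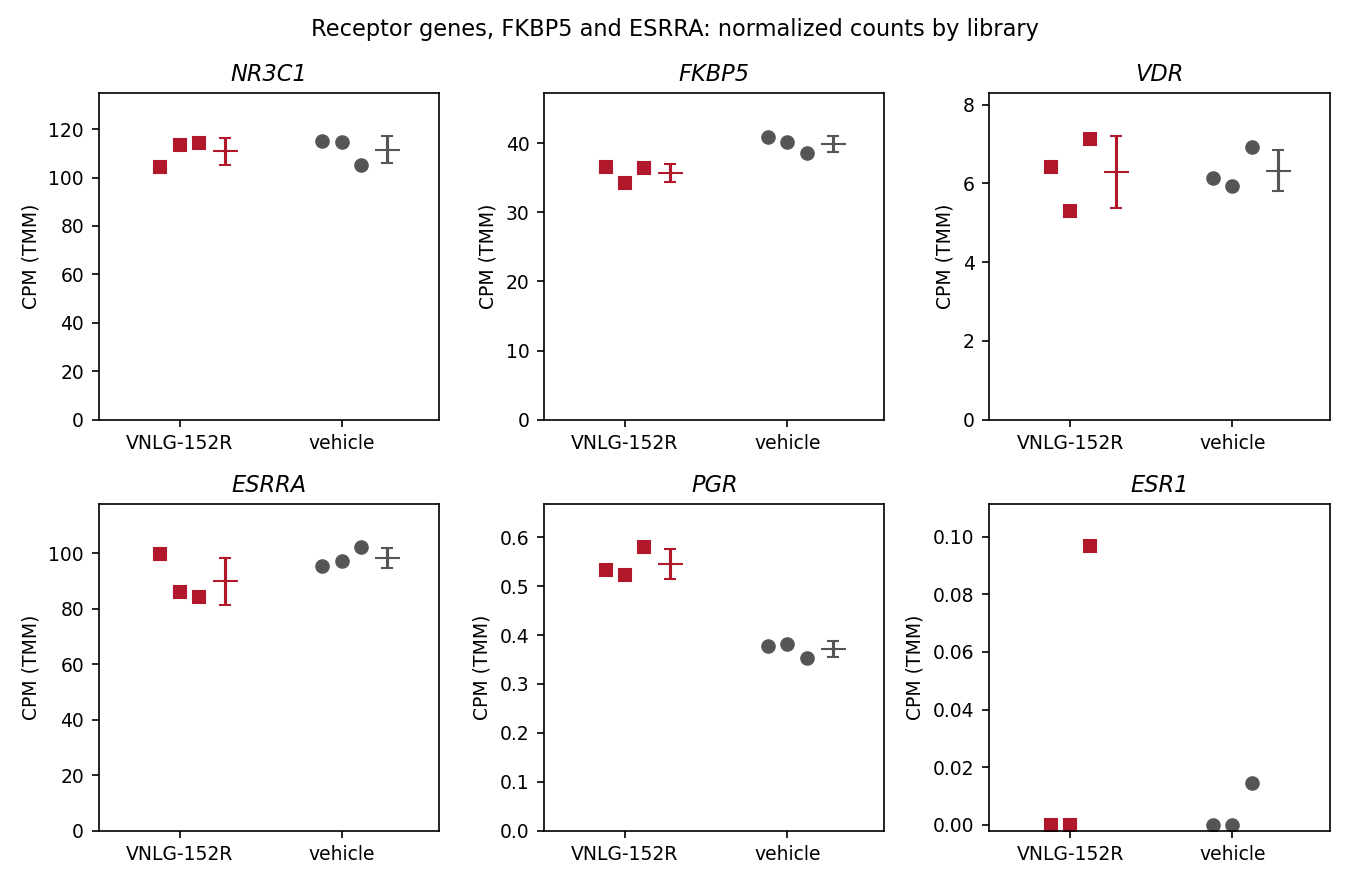
TMM-normalized CPM (vertical axes, 1 scale per gene) of the 6 genes in 3 VNLG-152R libraries (red squares) and 3 vehicle control libraries (grey circles), in replicate order; bars beside the points are the mean and SD, left out for ESR1, whose counts were too low. For NR3C1, VDR and ESRRA the groups overlap, PGR lies at 0.523 to 0.580 CPM with VNLG-152R and at 0.352 to 0.382 CPM in vehicle controls, and FKBP5 is a little lower in each VNLG-152R library.

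NR3C1, which encodes the glucocorticoid receptor (chr5:143277931-143435512, minus strand), had 104.5, 113.6 and 114.4 CPM in VNLG-152R replicates 1 to 3, against 115, 114.5 and 105 CPM in vehicle control replicates 1 to 3. Each group held one library near 105 CPM and a pair near 114 CPM, and the ranges lay almost on top of each other. The means were 110.8 ± 5.53 CPM with VNLG-152R and 111.5 ± 5.65 CPM in vehicle controls (SD, n = 3 each). The log2 fold change was -0.01 with a standard error of 0.08 and a 95% interval of -0.19 to 0.17, at an adjusted p of 0.964 in edgeR. The gene is covered by 6896 to 9470 counts per library, so that counting error is small beside the spread between libraries. The sign of so small a difference turned when 1 library was left out, to 0.04 without VNLG-152R replicate 1 and to 0.01 without vehicle control replicate 1 or 2. With the length correction the log2 fold change was -0.10.

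FKBP5 encodes an immunophilin that binds HSP90 and lowers the hormone affinity of the glucocorticoid receptor, and it is itself a widely used target gene of that receptor and of progesterone receptors (chr6:35573585-35728583, minus strand). It had 36.6, 34.2 and 36.4 CPM in VNLG-152R replicates 1 to 3, against 40.8, 40.2 and 38.6 CPM in vehicle control replicates 1 to 3. Every VNLG-152R library was below every vehicle control, with a gap smaller than the range within either group. The means were 35.7 ± 1.33 CPM with VNLG-152R and 39.9 ± 1.17 CPM in vehicle controls (SD, n = 3 each), a ratio of 0.896. The log2 fold change of -0.16 ± 0.08 (SE) had a 95% interval of -0.33 to 0.01, an unadjusted p of 0.0681 and an adjusted p of 0.261 in edgeR. It was negative under all 15 alternatives, between -0.26 and -0.13, with adjusted p-values of 0.0809 to 0.518. The value of -0.26 came from the correction for transcript length, which moved it by more than 1.5 times.

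FKBP4, the cochaperone that takes the place of FKBP5 in the receptor complex and favors its transport to the nucleus, had 225.9, 196 and 213.1 CPM in VNLG-152R libraries and 236.4, 240.2 and 242.3 CPM in vehicle controls. Its log2 fold change was -0.18 ± 0.08 (SE, edgeR adjusted p = 0.222), so both immunophilins had lower values in every VNLG-152R library without passing the test. The ratio of FKBP4 to FKBP5 was 5.92 ± 0.224 with VNLG-152R and 6.02 ± 0.25 in vehicle controls (SD, n = 3 each), within the spread of either group.

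VDR, the gene of the vitamin D receptor (chr12:47841537-47943048, minus strand), had 6.42, 5.31 and 7.13 CPM in VNLG-152R replicates 1 to 3, against 6.13, 5.93 and 6.91 CPM in vehicle control replicates 1 to 3. The VNLG-152R libraries held both the lowest and the highest value. Its log2 fold change was -0.01 ± 0.13 (SE) with a 95% interval of -0.29 to 0.27, at an edgeR adjusted p of 0.976. This interval is wider than that of NR3C1, on 357 to 590 counts per library. Without VNLG-152R replicate 2 the log2 fold change was 0.10, and without vehicle control replicate 3 it was 0.06.

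ESRRA encodes the estrogen-related receptor alpha (chr11:64305572-64316743, plus strand). It had 99.7, 86.1 and 84.1 CPM in VNLG-152R replicates 1 to 3, against 95.3, 97.4 and 102.3 CPM in vehicle control replicates 1 to 3. VNLG-152R replicates 2 and 3 were below all controls, while VNLG-152R replicate 1 lay within their range. The log2 fold change was -0.13 ± 0.09 (SE) with a 95% interval of -0.32 to 0.06, at an edgeR adjusted p of 0.414. It was negative in all 15 alternatives, from -0.21 without VNLG-152R replicate 1 to -0.06 with the length correction. Of its exons 9.37% lie under TRMT112 on the other strand, which had 136.5, 149.7 and 132.5 CPM with VNLG-152R and 167.9, 151.2 and 160 CPM in vehicle controls. The strand setting of the counting is not given in the sources used here, so reads from the shared bases may not be separable.

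PGR, the progesterone receptor gene (chr11:101029624-101130524, minus strand), had low counts. It had 36, 40 and 48 counts in VNLG-152R replicates 1 to 3, against 23, 23 and 24 counts in vehicle control replicates 1 to 3. Scaled to depth these were 0.532, 0.523 and 0.580 CPM with VNLG-152R and 0.378, 0.382 and 0.352 CPM in vehicle controls, and the groups did not overlap. The log2 fold change was 0.56 ± 0.25 (SE), a ratio of 1.47, with a 95% interval of 0.02 to 1.09, an unadjusted p of 0.0427 and an adjusted p of 0.203 in edgeR. It stayed positive in the 13 alternatives that gave it a value, between 0.33 and 0.59, with adjusted p-values of 0.199 to 0.479. The lowest, 0.33, came from the correction for transcript length, and the exons of PGR are longer in sum than those of 97.6% of tested genes. Its antisense neighbor PGR-AS1, which lies over 5.27% of its exons, held 1, 0 and 0 counts with VNLG-152R and 2, 0 and 3 counts in vehicle controls. The strand setting of the counting is not given, so reads from the shared bases may be in neither count, and their part was not tested.

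ESR1, the gene of estrogen receptor alpha (chr6:151656691-152129619, plus strand), had 0, 0 and 8 counts in VNLG-152R replicates 1 to 3, against 0, 0 and 1 counts in vehicle control replicates 1 to 3. It did not reach the expression filter, so the main fit holds no test of it. All 8 counts of the VNLG-152R libraries came from replicate 3, the deepest library. A count of 0 allows up to 3 counts, which is 0.0392 to 0.0444 CPM in VNLG-152R replicates 1 and 2 and 0.0493 to 0.0498 CPM in vehicle control replicates 1 and 2. These limits cover counting error only. In the fit without a filter ESR1 had an unadjusted p of 0.118 and an adjusted p of 0.507 in edgeR, and no fold change is given because most libraries were at 0.

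**Figure D2:**
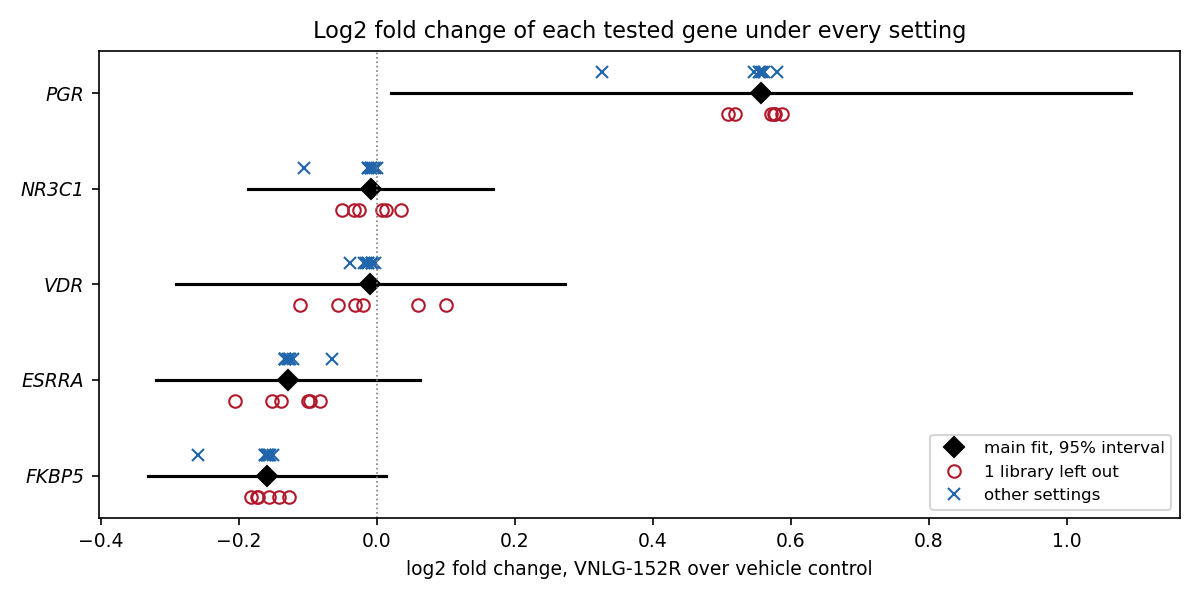
Log2 fold change of VNLG-152R over vehicle control (horizontal axis) for the 5 tested genes, with the main estimate and its 95% interval (black diamond and line), the values with 1 library left out (red circles) and those under the other settings (blue crosses). PGR stays between 0.33 and 0.59, FKBP5 and ESRRA stay below 0, and NR3C1 and VDR lie on both sides of 0.

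Set per kilobase of exons, the order of levels was the same in both groups. ESRRA came first with 27.8 to 32.9 CPM per kilobase with VNLG-152R and 31.5 to 33.8 CPM per kilobase in vehicle controls. NR3C1 followed with 11.4 to 12.5 CPM per kilobase with VNLG-152R and the same rounded range in vehicle controls. FKBP5 had 3.22 to 3.44 CPM per kilobase with VNLG-152R and 3.63 to 3.84 CPM per kilobase in vehicle controls. VDR had 0.936 to 1.26 CPM per kilobase with VNLG-152R and 1.05 to 1.22 CPM per kilobase in vehicle controls. PGR stood far below these with 0.0340 to 0.0377 CPM per kilobase with VNLG-152R and 0.0229 to 0.0248 CPM per kilobase in vehicle controls, and ESR1 was last at no more than 0.00698 CPM per kilobase in any library. No 2 neighbors in this order overlapped within a group, and the order was the same per kilobase of the longest transcript.

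**Figure D3:**
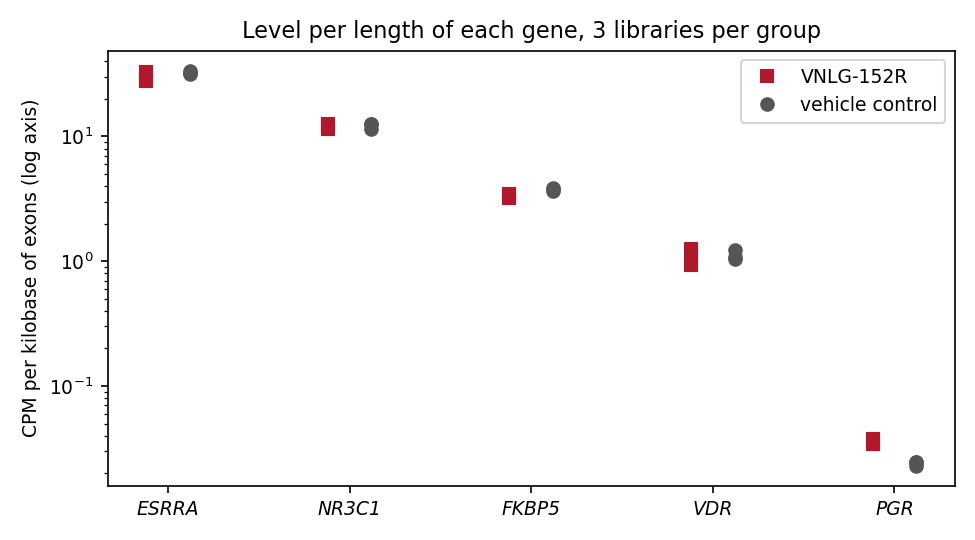
CPM per kilobase of exons on a log axis for the 5 genes detected in every library, 3 VNLG-152R libraries (red squares) and 3 vehicle control libraries (grey circles) per gene. The genes differ from one another by far more than the groups do, from 27.8 to 33.8 for ESRRA down to 0.0229 to 0.0377 for PGR; ESR1 is left out because a log axis cannot show 0.

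The genes whose log2 CPM followed each receptor most closely over the 6 libraries were named by Pearson's r among 11456 protein-coding genes. These libraries share a treatment and an order of depth, and with so many genes compared high values of r are easily reached, so they are given as a description with no p. For NR3C1 they were HIBADH (r = 0.988), USP53 (r = 0.976) and EFR3A (r = 0.964). For VDR they were EEF1AKMT3 (r = 0.981), SLC25A42 (r = 0.980) and AKR1B10 (r = 0.968). For FKBP5 they were SPECC1L (r = 0.999), SIAH2 (r = 0.995) and UQCC1 (r = 0.990), and for ESRRA they were METTL22 (r = 0.998), WDR18 (r = 0.990) and F12 (r = 0.989). None of the 12 had an adjusted p under 0.05 in edgeR, and the lowest was 0.0922 for SIAH2. With the length correction SPECC1L had a log2 fold change of -0.31 and an adjusted p of 0.0487.

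The lists of related genes below were not fixed independently of these data, so their counts are given as descriptions beside the share of all tested genes. Among receptor partners and relatives 3 of 7 genes could be tested and 1 rose, against 3.76% of all tested genes. This was NR3C2, the gene of the mineralocorticoid receptor, which shares some of its hormones with the glucocorticoid receptor. It had 9.30, 8.21 and 10.2 CPM in VNLG-152R libraries and 6.64, 6.96 and 6.77 CPM in vehicle controls, with no overlap. Its log2 fold change was 0.44 ± 0.11 (SE, edgeR adjusted p = 0.0381), and the call was lost in 7 of 15 alternatives, with the length correction (adjusted p = 0.0589), with the replicate block (adjusted p = 0.116) and without any 1 library other than VNLG-152R replicate 2. ESR2, the gene of estrogen receptor beta, had 2.16, 2.41 and 2.08 CPM with VNLG-152R and 1.36, 1.76 and 1.6 CPM in vehicle controls, without overlap, at a log2 fold change of 0.49 ± 0.17 (SE, edgeR adjusted p = 0.107). Per kilobase ESR2 stood above PGR and ESR1 in both groups, at 0.223 to 0.258 with VNLG-152R and 0.146 to 0.189 in vehicle controls.

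RXRA, the retinoid X receptor that pairs with the vitamin D receptor, had 191.9, 157.8 and 180.7 CPM with VNLG-152R and 158.9, 174.4 and 177.5 CPM in vehicle controls. Its log2 fold change was 0.05 ± 0.09 (SE, edgeR adjusted p = 0.766). RXRG had 0 counts in all 6 libraries. RXRB had 6, 3 and 5 counts with VNLG-152R and 2, 4 and 4 counts in vehicle controls. This low count is uncertain, since RPS18, a ribosomal protein gene beside it on chromosome 6, had 0 counts in all 6 libraries.

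Of the chaperones and cochaperones that hold unliganded receptors, 0 of 16 rose and 2 fell, against 1.43% lower calls among all tested genes. The median log2 fold change of the 16 was -0.15, and 15 of them had a negative value. HSPA8, the constitutive HSP70, had 1939, 1879 and 2036 CPM in VNLG-152R libraries and 2608, 2456 and 2562 CPM in vehicle controls, a log2 fold change of -0.38 ± 0.09 (SE, edgeR adjusted p = 0.0263). BAG1, a nucleotide exchange factor of HSP70, had 38.1, 39.4 and 38.9 CPM with VNLG-152R and 56.7, 46.2 and 47.0 CPM in vehicle controls, a log2 fold change of -0.36 ± 0.09 (SE, edgeR adjusted p = 0.0446). Both groups of values were separate, but the BAG1 call was lost without any 1 of the 6 libraries, and that of HSPA8 without any 1 other than VNLG-152R replicate 1. Of the main cytosolic HSP90 genes, HSP90AA1 had a log2 fold change of -0.33 (edgeR adjusted p = 0.141, or 0.0433 without the expression filter) and HSP90AB1 of -0.19 (edgeR adjusted p = 0.247). HSP90AA1 had 2114, 2020 and 2340 CPM with VNLG-152R and 3324, 2403 and 2437 CPM in vehicle controls. Vehicle control replicate 1 thus stood well above the other vehicle controls. The list had 3 lower calls with DESeq2, 3 without the filter and 1 with the length correction. The median log2 fold change was -0.10 with the length correction.

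Of coactivators and corepressors, 3 of 11 rose, against 3.76% of all tested genes, and 0 fell, and all 11 had a positive log2 fold change with a median of 0.22. These genes have long transcripts, with a median of 8447 bases against 3113 bases for all tested genes, and the median was 0.12 and the count 2 after the length correction. NRIP1, which encodes RIP140, a corepressor of several nuclear receptors, had 137.9, 158.3 and 150.6 CPM with VNLG-152R and 44.4, 52.3 and 41.2 CPM in vehicle controls, a log2 fold change of 1.70 ± 0.10 (SE, edgeR adjusted p = 1.955e-06). PPARGC1A, the coactivator that works with ESRRA, had 5.96, 5.65 and 6.94 CPM with VNLG-152R and 3.17, 4.17 and 4.26 CPM in vehicle controls, a log2 fold change of 0.68 ± 0.14 (SE, edgeR adjusted p = 0.0197). That call was lost without VNLG-152R replicate 3 (adjusted p = 0.0828) and without vehicle control replicate 1 (adjusted p = 0.0578). Its relative PPARGC1B had a log2 fold change of 0.21 ± 0.11 (SE, edgeR adjusted p = 0.302). NCOA3, a steroid receptor coactivator, had 73.9, 74.8 and 77.8 CPM with VNLG-152R and 54.6, 64.4 and 59.4 CPM in vehicle controls, a log2 fold change of 0.34 ± 0.09 (SE, edgeR adjusted p = 0.0399), and its call held in 8 of 15 alternatives, being lost with the replicate block (adjusted p = 0.136), after the length correction (adjusted p = 0.121) and without any 1 library other than VNLG-152R replicate 1. Without VNLG-152R replicate 3 or vehicle control replicate 1 the count of coregulators that rose was 1.

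**Figure D4:**
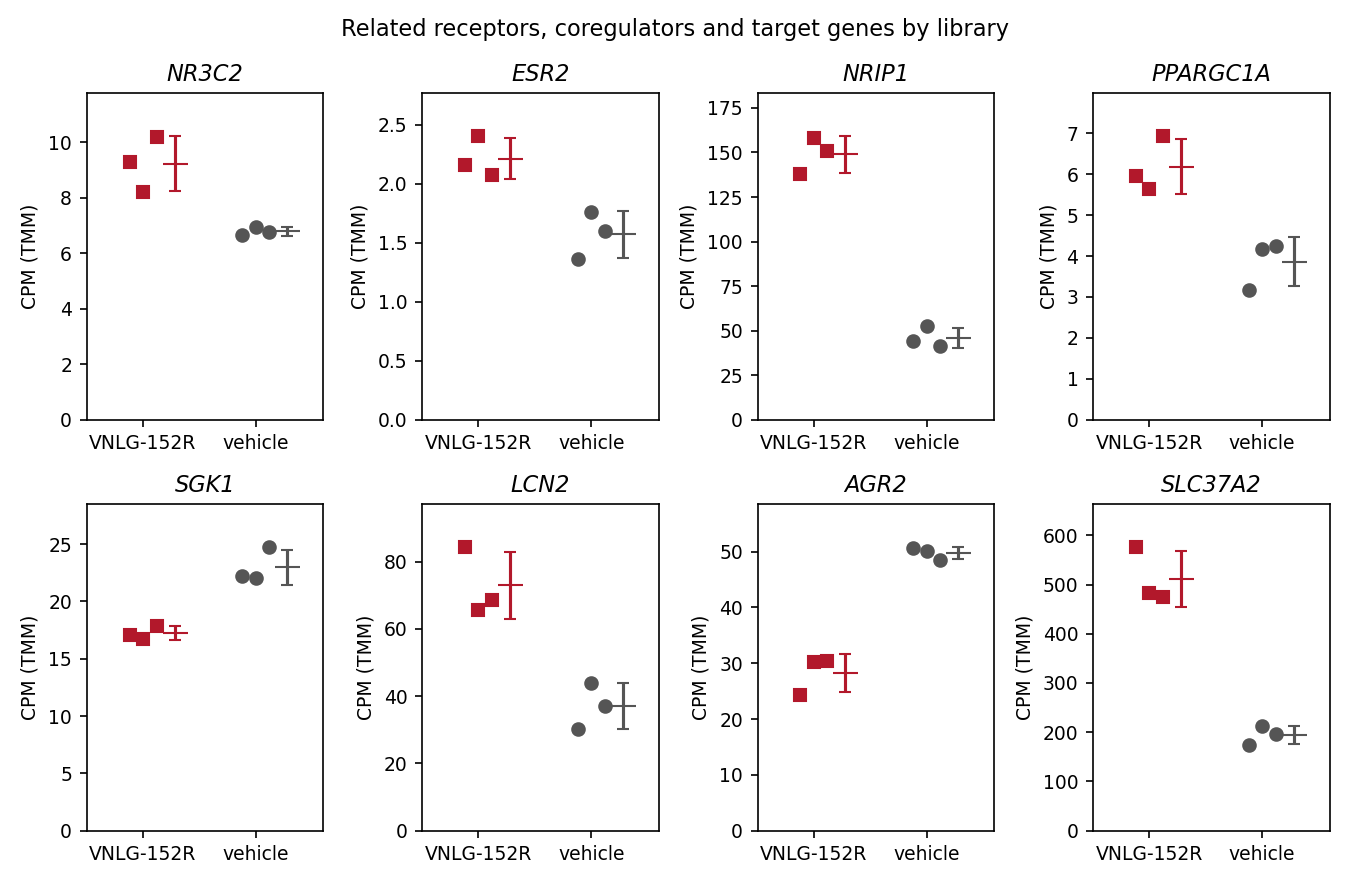
TMM-normalized CPM (vertical axes, 1 scale per gene, each starting at 0) of 8 related genes in 3 VNLG-152R libraries (red squares) and 3 vehicle control libraries (grey circles); bars are the mean and SD. The groups are separate in all 8 panels, against 28.5% of all tested genes. All genes drawn except ESR2 had passed the test, so their separation follows from the choice of genes. NRIP1 lies at 137.9 to 158.3 CPM against 41.2 to 52.3 CPM and AGR2 at 24.4 to 30.4 CPM against 48.5 to 50.6 CPM.

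Known targets of the glucocorticoid receptor moved in both directions. Of 23 listed genes 21 were tested, of which 4 rose, 3 fell and 14 did not pass, against 3.76% higher and 1.43% lower among all tested genes, with a median log2 fold change of 0.15. DESeq2 and the fit without a filter each gave 6 higher and 3 lower. TSC22D3, the gene of the glucocorticoid-induced leucine zipper, had 10.7, 12.1 and 13.0 CPM with VNLG-152R and 10.83, 11.01 and 10.5 CPM in vehicle controls, a log2 fold change of 0.15 ± 0.10 (SE, edgeR adjusted p = 0.407). PER1, a clock gene that glucocorticoids induce, had overlapping groups and a log2 fold change of 0.15 ± 0.13 (SE, edgeR adjusted p = 0.522). SGK1, a kinase gene induced early by glucocorticoids, fell to 17.1, 16.7 and 17.9 CPM with VNLG-152R, against 22.22, 22.01 and 24.74 CPM in vehicle controls, a log2 fold change of -0.42 ± 0.09 (SE, edgeR adjusted p = 0.0188). This call was lost with the replicate block (adjusted p = 0.0766) and without VNLG-152R replicate 2 or 3 or vehicle control replicate 3 (adjusted p = 0.0515, 0.0503 and 0.125). FKBP5, SGK1 and TSC22D3, all counted among targets of the same receptor, had values of different sign or size.

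NFKBIA, the inhibitor of NF-kappaB, fell by 0.45 on the log2 scale (edgeR adjusted p = 0.0123), and ANGPTL4, an inhibitor of lipoprotein lipase, fell by 0.66 (edgeR adjusted p = 0.0204). LCN2, an iron-siderophore binding protein, had 84.3, 65.7 and 68.7 CPM with VNLG-152R and 30.3, 44.0 and 37.2 CPM in vehicle controls, a log2 fold change of 0.97 ± 0.13 (SE, edgeR adjusted p = 0.00128), and this call held in all 15 alternatives. SCNN1A, a sodium channel subunit, rose by a log2 fold change of 0.42 (edgeR adjusted p = 0.039), and MT1X, a metallothionein, by 0.66 (edgeR adjusted p = 0.0415). MT1X shares 18.1% of its exons with AC026461.1 on the same strand and SCNN1A has 7.18% of its exons under LTBR on the other, so reads there are uncertain. Both calls held in 9 of 15 alternatives, that of NFKBIA in 14 and that of ANGPTL4 in 12. NF-kappaB and other factors are also known to act on NFKBIA and LCN2, and no receptor activity was measured. The count of called genes in the list was 1 without vehicle control replicate 3, 2 without VNLG-152R replicate 3, 3 without vehicle control replicate 1 and 3 with the replicate block.

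Of 22 listed targets of the vitamin D receptor 17 were tested, of which 3 rose, 1 fell and 13 did not pass, against 3.76% higher and 1.43% lower among all tested genes, with a median log2 fold change of 0.02. DESeq2 gave 4 higher and 2 lower. CYP24A1, the vitamin D hydroxylase whose induction is the usual mark of an active receptor, had 0.370, 0.262 and 0.266 CPM with VNLG-152R and 0.214, 0.233 and 0.220 CPM in vehicle controls. These low values did not overlap, but the log2 fold change of 0.42 ± 0.31 (SE) did not pass the test (edgeR adjusted p = 0.457). SLC37A2, a sugar-phosphate antiporter gene, had 576, 483 and 474 CPM with VNLG-152R and 175, 212 and 197 CPM in vehicle controls, a log2 fold change of 1.39 ± 0.10 (SE, edgeR adjusted p = 9.94e-06). CLMN, which encodes calmin, had 11.4, 11.9 and 12.2 CPM with VNLG-152R and 6.80, 7.87 and 6.65 CPM in vehicle controls, a log2 fold change of 0.74 ± 0.10 (SE, edgeR adjusted p = 0.00157). Both calls held in all 15 alternatives. THBD, the gene of thrombomodulin, rose by a log2 fold change of 0.62 (edgeR adjusted p = 0.00705), a call lost without vehicle control replicate 3 (adjusted p = 0.0533), and G0S2, an inhibitor of adipose triglyceride lipase, fell by 0.51 (edgeR adjusted p = 0.00771), a call lost with the length correction (adjusted p = 0.0529).

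Genes of vitamin D handling were tested for 5 of 6, of which 2 rose, against 3.76% of all tested genes, and 0 fell, with a median log2 fold change of 0.42. CYP27A1, a sterol hydroxylase that can make the circulating form of vitamin D, had 20.9, 17.0 and 18.2 CPM with VNLG-152R and 13.8, 14.2 and 12.8 CPM in vehicle controls, a log2 fold change of 0.46 ± 0.10 (SE, edgeR adjusted p = 0.0227). DHCR7, which takes the vitamin D precursor into cholesterol, rose by a log2 fold change of 1.54 (edgeR adjusted p = 5.67e-06). CYP27B1 and CYP2R1, which activate vitamin D, had log2 fold changes of 0.12 (edgeR adjusted p = 0.724) and 0.01 (edgeR adjusted p = 0.95). The CYP27A1 call was lost with the replicate block (adjusted p = 0.071) and without VNLG-152R replicate 3, vehicle control replicate 1 or vehicle control replicate 3 (adjusted p = 0.0631, 0.0559 and 0.125), where the count was 1.

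Of 20 listed targets of the estrogen receptor 17 were tested, of which 1 rose, 3 fell and 13 did not pass, against 3.76% higher and 1.43% lower among all tested genes, in cells where ESR1 itself was at or near 0 counts. The median log2 fold change was -0.12, and DESeq2 gave 0 higher and 4 lower. AGR2, a disulfide isomerase gene, had 24.4, 30.1 and 30.4 CPM with VNLG-152R and 50.6, 50.1 and 48.5 CPM in vehicle controls, a log2 fold change of -0.81 ± 0.10 (SE, edgeR adjusted p = 0.000439) that held in all 15 alternatives. TFF3, a trefoil peptide gene, had a log2 fold change of -0.53 (edgeR adjusted p = 0.0411) and AREG, a ligand of the EGF receptor, one of -0.40 (edgeR adjusted p = 0.0423). GREB1, a gene known for its induction by estrogen, had 0.872, 0.824 and 0.858 CPM with VNLG-152R and 0.444, 0.515 and 0.470 CPM in vehicle controls, a log2 fold change of 0.84 ± 0.22 (SE, edgeR adjusted p = 0.0455). TFF1, the classical estrogen-induced peptide gene, had 3.68, 3.58 and 3.84 CPM with VNLG-152R and 4.78, 4.77 and 5.09 CPM in vehicle controls, a log2 fold change of -0.40 ± 0.12 (SE, edgeR adjusted p = 0.0712, or 0.044 with DESeq2). GREB1 and TFF1 differed in sign. The calls of TFF3, AREG and GREB1 were the fragile ones, held in 7 of 15, 5 of 15 and 4 of 13 alternatives, and the count in the list was 1 without any 1 library other than VNLG-152R replicate 2, where it was 2.

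Of 14 listed targets of ESRRA 13 were tested and 0 passed in edgeR, against 5.19% of all tested genes. Among 13 genes a count of 0 is close to that share and does not set them apart. With DESeq2 and with limma-voom 0 passed, and 3 had an unadjusted p under 0.05 in edgeR. The median log2 fold change of the 13 was -0.19, or -0.11 with the length correction, and 12 of the 13 were negative. The 3 were ATP5F1B, UQCRFS1 and SDHB, which encode subunits of the respiratory chain and of ATP synthase. ATP5F1B had a log2 fold change of -0.20 (edgeR adjusted p = 0.165), UQCRFS1 one of -0.23 (edgeR adjusted p = 0.141) and SDHB one of -0.21 (edgeR adjusted p = 0.178). These genes were named for their unadjusted p, after their values were seen. MDH1, of the same list, had an unadjusted p of 0.0501 and an adjusted p of 0.222 in edgeR. Unadjusted p-values of that size were therefore common among all tested genes, and the 3 do not stand out by them.

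Of 20 listed genes of steroid hormone metabolism 15 were tested, of which 3 rose, against 3.76% of all tested genes, and 0 fell, with a median log2 fold change of 0.09. DESeq2 and the length correction each gave 2 higher and 1 lower. HSD17B7, a reductase of both estrone and a sterol intermediate, had 16.04, 23.79 and 20.88 CPM with VNLG-152R and 11.3, 10.4 and 11.2 CPM in vehicle controls, a log2 fold change of 0.89 ± 0.13 (SE, edgeR adjusted p = 0.00196) that held in all 15 alternatives. H6PD, which supplies NADPH to the cortisol-forming enzyme HSD11B1, had 231, 209 and 211 CPM with VNLG-152R and 139, 176 and 155 CPM in vehicle controls, a log2 fold change of 0.47 ± 0.10 (SE, edgeR adjusted p = 0.017). The H6PD call held in 11 of 15 alternatives. It was lost with the replicate block (edgeR adjusted p = 0.0577) and without VNLG-152R replicate 3, vehicle control replicate 1 or vehicle control replicate 3 (edgeR adjusted p = 0.0545, 0.0614 and 0.0907). HSD11B1 itself had 3.31, 3.48 and 3.27 CPM with VNLG-152R and 2.06, 3.02 and 2.54 CPM in vehicle controls and did not pass (log2 fold change 0.40, edgeR adjusted p = 0.155). HSD17B2, which inactivates estradiol, had at most 0.362 CPM in any library, and its call (log2 fold change 1.71 ± 0.45, SE, edgeR adjusted p = 0.0484) held in 4 of 13 alternatives. Without VNLG-152R replicate 3, vehicle control replicate 1 or vehicle control replicate 3 the count in the list was 1, as it was with the replicate block. HSD11B1 is outside the rule for named genes and is given beside H6PD after its values were seen.

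**Figure D5:**
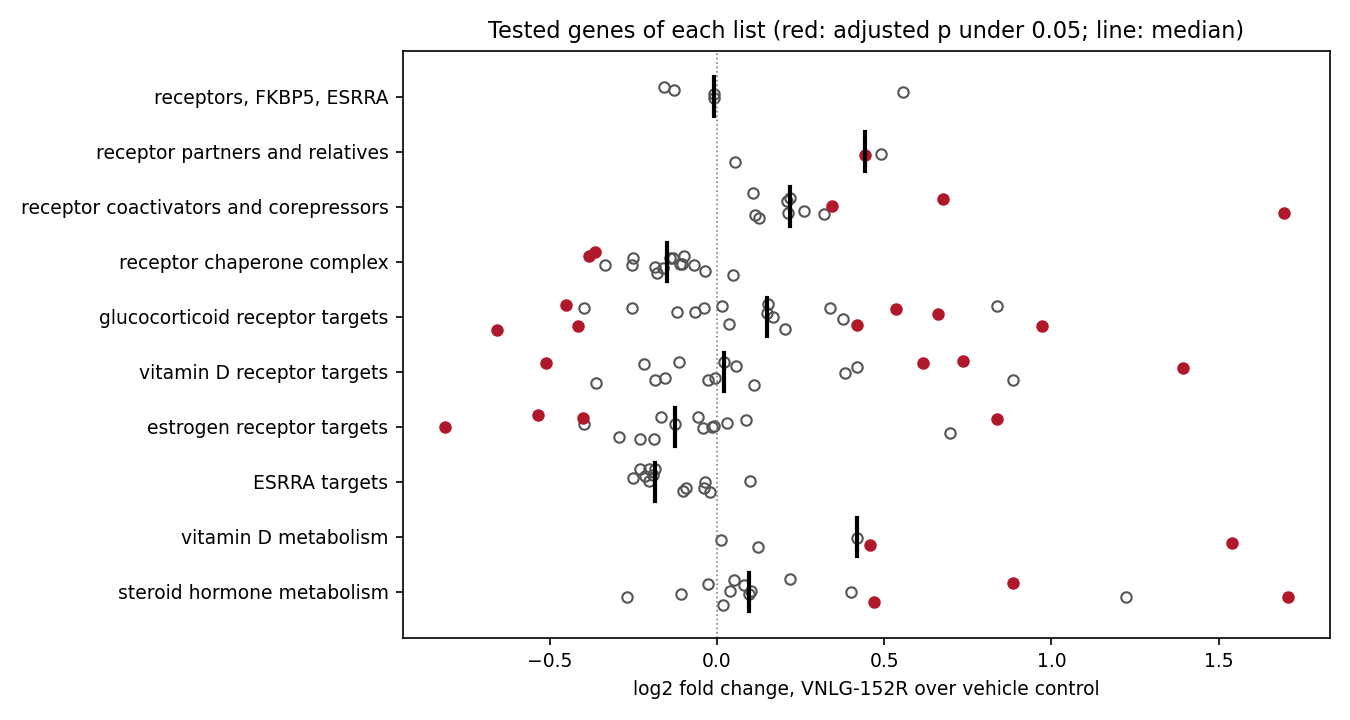
Log2 fold change of VNLG-152R over vehicle control (horizontal axis) for every tested gene of 10 lists (rows), with filled red points for an adjusted p under 0.05, open points for the rest and a black line at each median; the vertical spread within a row only separates the points. The row of the receptors, FKBP5 and ESRRA holds no red point, the 3 target lists of NR3C1, VDR and ESR1 have red points on both sides of 0, and the ESRRA targets have none. With 5.19% of all tested genes called, rows of so few genes can hold no red point without standing apart.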

How the data were processed

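The authors made stranded polyA libraries from 3 VNLG-152R and 3 vehicle control samples and read them in pairs of 100 bases. The authors deposited raw counts per Ensembl gene for each library; their processing notes name HISAT, HTSeq, DESeq and GRCh38, without versions. The sources used here do not give the annotation release or strand setting. HTSeq's special classes were left out of the totals.

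Counts were compared in R 4.3.3 with edgeR 4.0.16 (quasi-likelihood test, TMM, filterByExpr, Benjamini-Hochberg over all 17084 tested genes, residual degrees of freedom 4). The SE is the absolute log2 fold change over the square root of F. Alternatives were RLE factors, library size only, DESeq2 1.42.0, limma-voom (limma 3.58.1), no filter on low counts, a minimum mean of 1 CPM, a replicate block, a lowess correction for transcript length (span 0.3), thinning to the shallowest library, and leaving out each library. Tests were tested on simulated data. The simulated counts had the same dispersion for every gene and no trend with transcript length, so they cannot show how such features affect the calls. Coordinates, lengths and sequences come from GENCODE release 29.

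The genes and lists were chosen with earlier results of these data known. Named genes are the 6 genes, up to 4 called genes with the smallest p per direction and list, defining targets and partners whatever their call, and the 3 genes most correlated with each gene of at least 1 CPM. Some genes that this rule would name are counted in their lists but not reported here by name.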

Additional observations from a re-analysis of the deposited data

Results flagged for a closer look

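ESR1 had 8 counts in VNLG-152R replicate 3, above the 3 counts that a count of 0 allows, in a gene that the tests left out for its low counts. The other VNLG-152R libraries had 0 counts, and vehicle controls had at most 1. The share of read pairs that fell in no annotated gene, a class outside the comparisons, was at least 3.36% in each VNLG-152R library and 2.63% to 3.17% in vehicle controls, so that the groups did not overlap. Its part in the values of the receptor genes was not tested.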

How the results depend on the processing

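Under every alternative 0 of the receptor genes tested, FKBP5 included, had an adjusted p under 0.05, the lowest being 0.0809 for FKBP5 with the length correction. PGR, FKBP5 and ESRRA kept their sign. The log2 fold change of NR3C1 was 0.0351 without VNLG-152R replicate 1 (-0.0505 to 0.0351 over the libraries left out, -0.10 with the length correction), that of VDR 0.10 without VNLG-152R replicate 2 (-0.11 to 0.10 likewise), and that of RXRA -0.00497 without VNLG-152R replicate 1 (up to 0.13). The cause was not tested for any of these shifts.

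All genes called were 887 in the main comparison, 1539 with no filter, 1501 with DESeq2 and 264 to 948 with 1 library left out. With 1 library left out, calls were 0 to 1 among receptor partners, 0 to 2 among chaperones, 1 to 3 among coregulators, 1 to 6 among glucocorticoid receptor targets, 1 to 2 among estrogen receptor targets, 1 to 2 in vitamin D metabolism, 1 to 3 in steroid metabolism and 0 to 2 among line markers. With library size only, chaperones had 1 call and estrogen receptor targets 2, and with limma-voom estrogen receptor targets had 2. Line markers had 2 calls with no filter or DESeq2 and 0 at a mean of at least 1 CPM. The length correction left 0 calls among receptor partners, 1 among chaperones, 1 among estrogen receptor targets and 0 among line markers.

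The labels do not say whether same-numbered libraries were paired. Deviations of same-numbered libraries from their group means correlated at -0.192, -0.173 and -0.114, and those of the other pairs at 0.0121 to 0.147. Because the deviations are centered within each group, these values cannot decide whether the libraries were paired. With the replicate block 397 genes were called, 0 among receptor partners, 0 among chaperones, 3 among glucocorticoid receptor targets, 1 among estrogen receptor targets, 1 in vitamin D metabolism, 1 in steroid metabolism and 0 among line markers.

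Per kilobase of the longest transcript, NR3C1 stood at 3.15 times FKBP5 with VNLG-152R and 2.83 times in vehicle controls, and FKBP5 at 3.72 times VDR with VNLG-152R and 4.1 times in vehicle controls. Of the 12 correlated genes, the 6 of NR3C1 and VDR turned sign around 0 in some settings and the 6 of FKBP5 and ESRRA in none. HIBADH had -0.0033 with RLE, -0.00319 with DESeq2, -3.667e-05 with the replicate block and -0.045 to 0.0457 with a library left out. USP53 had -0.0474 with the length correction and -0.037 to 0.0557 with a library left out. EEF1AKMT3 had 0.0295 with the length correction and -0.11 to 0.0634 with a library left out. AKR1B10 had 0.0216 with the length correction and -0.20 to 0.079 with a library left out. EFR3A had -0.0721 to 0.0357 and SLC25A42 -0.0433 to 0.0792 with a library left out. Of 684 values of named genes under alternatives, 552 kept their call and direction. Genes under 1 CPM, PGR and ESR1 among them, rest on few counts.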
